A study of Mus musculus with 32 samples.

Results

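BC57 cells, a mouse bladder cancer line grown in culture, were compared with normal mouse urothelium in 2 ng of RNA from formalin-fixed, paraffin-embedded (FFPE) material. The comparison took the 3 arrays of each of these groups, 6 of the 32 arrays of the series, and every one of the 21237 probe sets, each named by a mouse Ensembl gene identifier. Urothelium is the stratified epithelium that lines the bladder and forms its barrier to urine. Formalin links nucleic acids to proteins and to each other, and RNA recovered from fixed blocks is usually broken into short pieces, which is why such samples are amplified with kits made for small and damaged input.

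The labels describe the sources as follows. Normal urothelium was taken from 9 mice, with strain, sex and age not given in the sources used here, and BC57 was a harvested pellet of 1 cell line, a single source of tumour RNA. Material of each kind was split into a fresh frozen (FF) part and a part held in buffered formalin for 24 h before embedding. FFPE RNA came from 10 slices of 5 µm and was extracted with another kit than FF RNA, so fixation and extraction cannot be told apart. All 6 arrays were made with the GeneChip WT Pico kit. Groups used for comparison were FF RNA at 2 ng and FFPE RNA at 0.5 ng with the same kit (3 arrays each for BC57 and urothelium), and FFPE RNA at 50 ng with the SensationPlus kit (2 arrays each), where kit and input differ together. Counts of shared calls also drew on FF RNA at 0.5 ng with WT Pico (3 arrays each) and at 100 ng with WT Plus (2 arrays each). The design speaks of repeats of a sample and names no separate animals or cultures for them. The p-values below measure spread between repeat arrays, which may be technical, and precision is limited by how few arrays each group has.

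Values are log2 RMA values, so a difference of 1 is a fold of 2. A probe set was called when limma's test gave a Benjamini-Hochberg adjusted p under 0.05 over all 21237 probe sets and the log2 change was at least 1 in size. The files pair no identifier with a gene name, and the reference table at hand named 0 of them. Identifiers are therefore printed without a role, for 2 rises and 2 falls chosen by size, and whether urothelial or tumour markers behave as the labels say was not tested.

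The FFPE arrays of the 2 cell sources differed in shape before any probe set was singled out. The SD over probe sets was 1.59, 1.6 and 1.64 in BC57 and 1.45, 1.47 and 1.44 in urothelium, replicates 1 to 3. The BC57 and urothelium arrays did not overlap in this measure. The distance from the 5th to the 95th percentile was 5.24 ± 0.08 in BC57 and 4.68 ± 0.05 in urothelium (SD, n = 3 each, exact 2-sided permutation p = 0.1, the smallest that 20 relabelings allow). At FF 2 ng the same distance ran from 6.2 to 6.4 in BC57 and from 6.24 to 6.29 in urothelium, where the groups overlapped. The gap was not particular to FFPE 2 ng. At FFPE 0.5 ng the distance ran from 4.90 to 4.91 in BC57 and from 4.43 to 4.51 in urothelium. At FFPE 50 ng it was 6.04 on each BC57 array, and 5.55 and 5.65 in urothelium. Bright probe sets accounted for most of the gap at FFPE 2 ng, since the 95th percentile of BC57 was 8.11 ± 0.02 and that of urothelium 7.67 ± 0.06. The 5th percentiles lay at 2.88 ± 0.07 and 3.0 ± 0.03 (SD, n = 3 each, exact permutation p = 0.1 for both percentiles). Replicates correlated at 0.986 to 0.987 in BC57 and 0.978 to 0.984 in urothelium over probe sets, and arrays of different sources at 0.916 to 0.927. Replicate SD (root mean square over probe sets) came to 0.19 for BC57 and 0.21 for urothelium, against 0.14 and 0.12 at FF 2 ng.

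**Figure D1:**
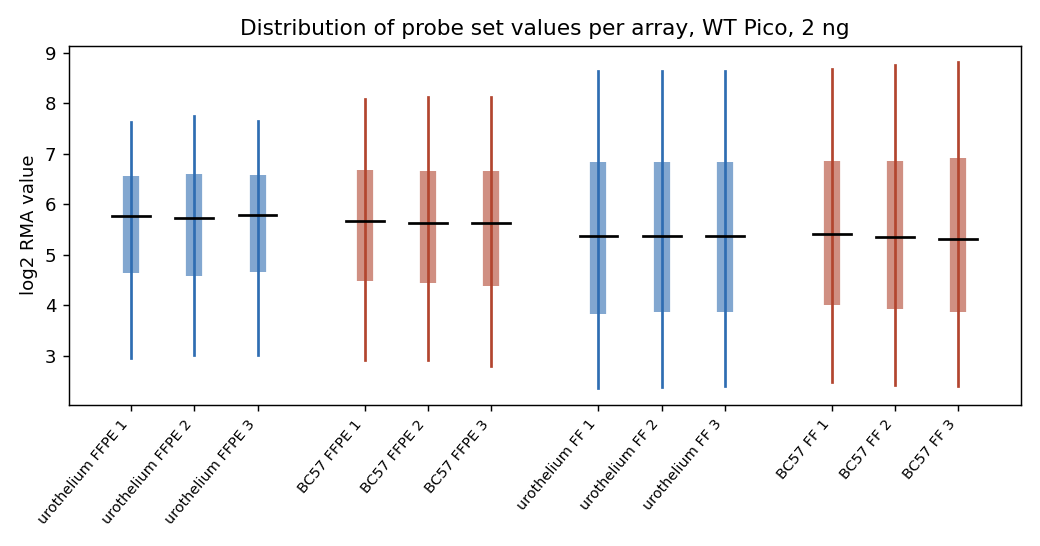
Percentiles of the log2 RMA values (y axis) of each WT Pico array at 2 ng (x axis), FFPE on the left and FF on the right, with lines from the 5th to the 95th percentile, bars from the 25th to the 75th and black marks at the median. The FFPE urothelium arrays reach 7.64 to 7.74 at the 95th percentile and the FFPE BC57 arrays 8.09 to 8.13.

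The comparison called 1562 probe sets, or 7.36%, of which 1049 were higher in BC57 (4.94%) and 513 lower (2.42%). In RNA from many cells at equal input, a lower level through fewer cells of a type and through less of the transcript per cell cannot be told apart. The median change of the probe sets higher in BC57 was 1.34, with quartiles of 1.14 and 1.70, and of those lower -1.33, with quartiles of -1.72 and -1.12. By size, 911 of the rises lay between 2-fold and 4-fold, 103 between 4-fold and 8-fold and 35 above 8-fold. Of the falls these were 435, 53 and 25. Among changes of at least 16-fold, 8 were rises and 10 falls. The fitted change had a median SE of 0.12 over all probe sets, with a 5th to 95th percentile range of 0.09 to 0.22.

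The fold threshold, more than the p-value, set the number of calls. Adjusted p alone passed 8213 probe sets, 38.7% of those tested, and 6651 of them changed by less than 2-fold. A change of at least 2-fold without a passing p was seen at 10 probe sets. At a threshold of 1.5-fold, 2391 rises and 1685 falls passed, and at 4-fold 138 and 78. The threshold lay in a dense part of the distribution: 304 called probe sets had changes between 1 and 1.1, and 359 with a passing p lay between 0.9 and 1. The 3 arrays of BC57 all lay above, or all below, those of urothelium at 1555 of the 1562 calls. Over all probe sets this held for 52.9%, with BC57 above at 4721 (22.2%) and below at 6515 (30.7%).

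In the deposited values the rises were brighter than the falls. Probe sets called higher had a median level of 7.72 in BC57 and 6.29 in urothelium, and those called lower 5.27 in BC57 and 6.73 in urothelium, against medians of 5.65 and 5.76 over all probe sets. The lower of the group levels was under the median of all 6 arrays in 69.4% of the falls and 32.3% of the rises. Probe sets were then split by mean level into 5 groups of equal size (quintiles). Of the dimmest quintile 0.80% were called (14 higher, 20 lower), and of the brightest 16.6% (595 higher, 111 lower).

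This tilt ran through all probe sets and not only the called ones. From the dimmest to the brightest quintile, the median change was -0.15, -0.23, -0.17, 0.0039 and 0.29, and the share of changes above 0 was 24.6%, 20.7%, 32.1%, 50.4% and 71.6%. At FF 2 ng the medians of the same quintiles ran from 0.08 to 0.18. Over all probe sets the median change at FFPE 2 ng was -0.10, and 60.1% were below 0. After quantile normalization, which gives every array the same distribution, the quintile medians ran from -0.08 to -0.0050, and the calls numbered 2050, with 58.0% higher in BC57 against 67.2% as deposited. Centring arrays on their medians moved the median change by over 0.1, to 0.01, with 76.8% of 1703 calls higher. In the brightest quintile, formed anew within each scaling, calls were 406 higher and 315 lower after quantile normalization. After centring they were 741 and 96. At the 2-fold threshold rises outnumbered falls under all 3 scalings, by a margin that depended on the scaling. With adjusted p alone, the deposited values gave 3917 higher and 4296 lower, so falls outnumbered rises there.

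**Figure D2:**
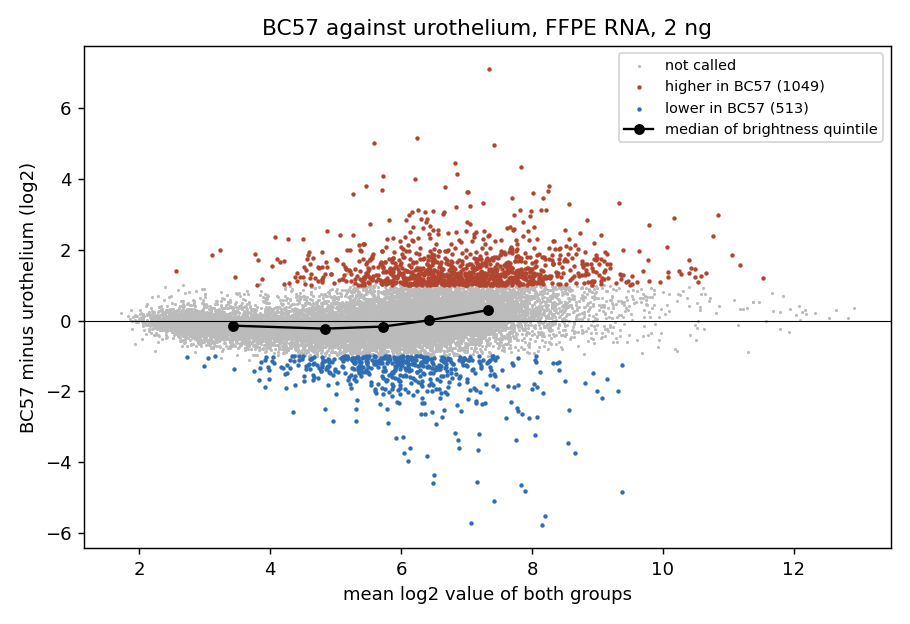
BC57 minus urothelium change (log2, y axis) against the mean level of both groups (log2, x axis) for every probe set at FFPE 2 ng, called rises in red, called falls in blue, black points at the median of each brightness quintile. The black line lies at -0.15 to -0.23 in the dimmer 3 quintiles and at 0.29 in the brightest.

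The largest rise was ENSMUSG00000024512, at 10.75, 10.94 and 11 in BC57 and 3.61, 3.98 and 3.76 in urothelium. All BC57 arrays were above their 99th percentile of 9.45 to 9.61, and all urothelium arrays under their 25th percentile of 4.58 to 4.66. The change was 7.11 ± 0.12 (SE, n = 3 each), a 138-fold difference (limma adjusted p = 5.62e-08). At FF 2 ng it was 8.83, and the difference of the changes, -1.72 ± 0.15 (SE), was called (limma adjusted p = 2.83e-06). From FF to FFPE the BC57 level went from 11.59 ± 0.15 to 10.90 ± 0.13 and the urothelium level from 2.76 ± 0.04 to 3.79 ± 0.19 (SD, n = 3), so the dim source moved more than the bright one.

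ENSMUSG00000062345 came next, at 8.55, 8.91 and 9.04 in BC57 and 3.66, 3.79 and 3.55 in urothelium. The groups were far apart and urothelium was again low. Its change was 5.17 ± 0.14 (SE), or 35.9-fold (limma adjusted p = 3.28e-07), against 6.09 at FF 2 ng, where BC57 stood at 9.20 ± 0.19 and urothelium at 3.11 ± 0.05 (SD, n = 3). Here the difference of -0.92 ± 0.18 stayed under the fold threshold (limma adjusted p = 0.00157). RMA gives no detection call, so the urothelium level of both rises may be background, and their folds, ranks and differences between conditions depend on that level.

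The largest fall was ENSMUSG00000107369, at 5.24, 5.68 and 4.84 in BC57 and 10.95, 11.30 and 10.88 in urothelium. BC57 varied more than urothelium here, with a range of 0.84, and the groups did not overlap. The change was -5.79 ± 0.21 (SE), a 55.2-fold difference (limma adjusted p = 9.74e-07). At FF 2 ng the change was also -5.79, although both levels were higher there, with BC57 at 6.94 ± 0.33 and urothelium at 12.73 ± 0.04 (SD, n = 3). The difference between the conditions was 0.00073 ± 0.28 (SE, limma adjusted p = 0.998). FFPE RNA at 50 ng gave -4.61, and the FFPE 2 ng change was called larger than that, by -1.18 ± 0.32 (SE, limma adjusted p = 0.0365). BC57 stood at 7.97 and 8.39 at FFPE 50 ng and urothelium at 12.73 and 12.84. Their means at FFPE 2 ng were 5.26 and 11.04, so the BC57 level differed more between these conditions than the urothelium level. The urothelium levels at FFPE 50 ng were close to the highest value of any array (13.22), and whether such levels are compressed was not tested.

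ENSMUSG00000019929 stood at 4.44, 4.09 and 4.09 in BC57 and 9.85, 10.33 and 9.61 in urothelium. Urothelium replicate 2 was the highest of the 6 arrays. The change of -5.72 ± 0.18 (SE), or 52.9-fold (limma adjusted p = 6.57e-07), was smaller than at FF 2 ng (-7.39) by 1.67 ± 0.21 (limma adjusted p = 6.18e-05). Its BC57 level was 4.21 ± 0.20 at FFPE 2 ng and 4.14 ± 0.06 at FF 2 ng, and its urothelium level 9.93 ± 0.36 and 11.53 ± 0.04 (SD, n = 3). The mean BC57 level at FFPE 2 ng lay under the 25th percentile of the BC57 arrays (4.37 to 4.47) and may be background too, with the same limit on its fold and rank. By size of change over all probe sets, the 4 held ranks 1, 5, 2 and 3 at FFPE 2 ng in the order given, and ranks 1, 17, 20 and 4 at FF 2 ng.

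**Figure D3:**
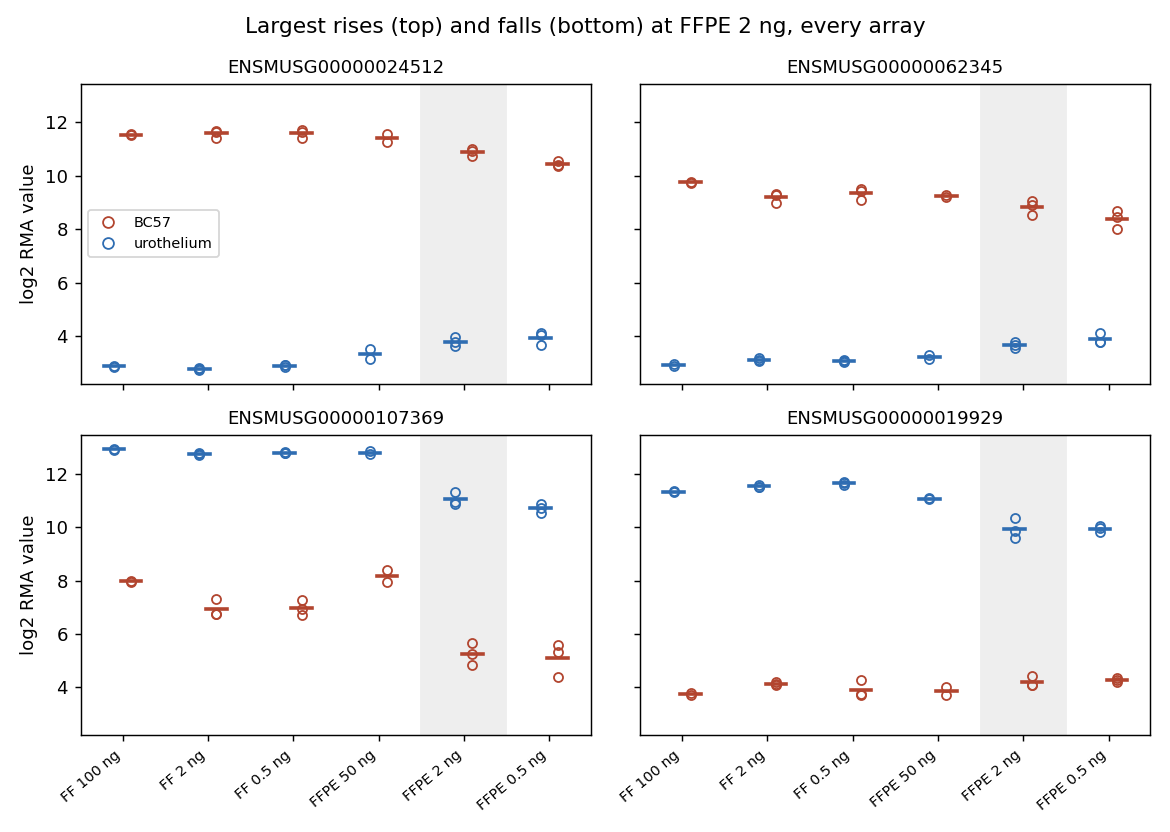
Log2 RMA value (y axis) of the 2 largest rises (top) and 2 largest falls (bottom) on every array of the 6 conditions (x axis), BC57 in red and urothelium in blue, bars at the group means, FFPE 2 ng shaded. ENSMUSG00000107369 is lower in both sources at FFPE 2 ng and 0.5 ng than elsewhere, while the distance between them is -5.79 at FFPE 2 ng and at FF 2 ng.

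FF RNA at the same input and with the same kit showed more and larger differences between the sources. At FF 2 ng 3180 probe sets were called, 15% of those tested, with 1621 higher (7.63%) and 1559 lower (7.34%) in BC57. FFPE 2 ng called 1207 of these in the same direction, which is 38.0% ± 0.88 (jackknife SE over 12 arrays) of the FF calls and 77.3% of the FFPE calls, and 1 in the opposite direction. After quantile normalization FF 2 ng called 2552 and FFPE 2 ng 2050, a smaller gap. The calls shared in direction were then 54.8% of the FF calls and 68.2% of the FFPE calls. The 2 comparisons share no arrays. Changes correlated at r = 0.761 (rho 0.599) over the 21237 probe sets, which are not independent replicates. The median ratio of the FFPE to the FF change over the FF calls was 0.476 ± 0.02 (jackknife SE). These probe sets were picked by their FF values, which by itself lowers such a ratio, by an amount that was not tested. Both jackknife SEs treat the 12 arrays as 1 set and not as separate groups, so they are approximate.

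Most lost calls kept their direction. Of the 1973 FF 2 ng calls not shared, 1514 still passed the adjusted p at FFPE 2 ng with a change under 2-fold, 403 failed both criteria, and 55 had the opposite sign, 3 of them with a passing p. Retention rose with the size of the FF change. For rises it was 35.6% of 1207 at 2-fold to 4-fold, 68.2% of 286 at 4-fold to 8-fold and 89.8% of 128 above, and for falls 9.77% of 1013, 50.0% of 324 and 92.8% of 222. In all, 45.7% of the FF rises and 30.0% of the FF falls were called at FFPE 2 ng, 51.8% and 23.8% after centring and 61.5% and 48.9% after quantile normalization. Falls thus had the lower share under all 3 scalings, a difference that was not tested.

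**Figure D4:**
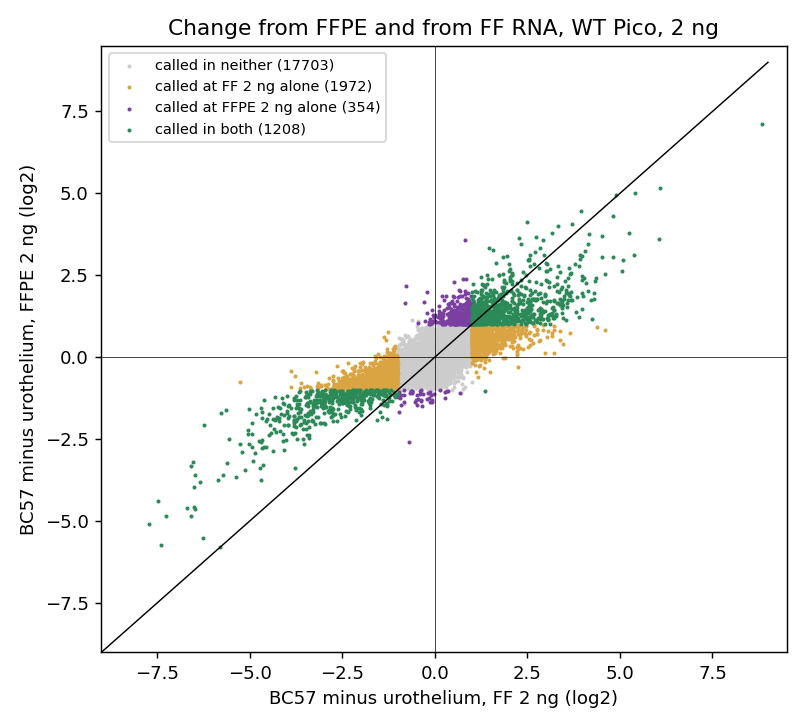
BC57 minus urothelium change at FFPE 2 ng (log2, y axis) against that at FF 2 ng (log2, x axis) for every probe set, coloured by where it was called, with the line of equal change. The 1207 probe sets called in the same direction in both lie mostly between the line and the horizontal axis.

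The test of the difference itself called 1477 probe sets, 6.95% of those tested, of which 1312 had a smaller change at FFPE 2 ng and 165 a larger one. The difference was positive at 916 (4.31%) and negative at 561 (2.64%), or 62.0% positive, against 73.4% after centring. Adjusted p alone passed 8905 (41.9%), with 3641 positive, or 40.9%, so the positive majority held only with the fold threshold. Called differences ran from -3.77 to 4.5. A called and smaller change was found for 465 of the 1621 FF rises (28.7%) and 760 of the 1559 FF falls (48.7%). After quantile normalization 781 differences were called, 517 smaller and 264 larger, with 12% of the FF rises and 23.6% of the FF falls called smaller. The counts of smaller changes outnumbered those of larger ones with either scaling and after centring (1354 and 176).

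By class medians of the deposited values, the level of the brighter source moved more than that of the dimmer one, unlike both named rises. The classes and the quintiles below were picked by FF values. That by itself moves high FF levels down and low ones up, by an amount that was not tested. Rises of over 8-fold at FF 2 ng had median levels of 8.26 in BC57 and 4.57 in urothelium there, and 7.15 and 5.11 at FFPE 2 ng. The median shift from FF to FFPE was -1.18 in BC57 and 0.56 in urothelium. Falls of over 8-fold went from 4.94 in BC57 and 8.89 in urothelium to 5.29 and 7.18, with shifts of 0.40 and -1.70. Over all probe sets, the median shift in the brightest quintile of FF 2 ng levels was -0.61 in BC57 and -0.92 in urothelium, and in the dimmest quintile 0.48 and 0.72. Without a split by level, the median shift was 0.28 in BC57 and 0.39 in urothelium. After centring, the brightest quintile shifted by -0.90 in BC57 and -1.31 in urothelium, and the dimmest by 0.19 and 0.34. After quantile normalization the median shift of the brightest quintile was -0.13 and -0.30, and that of the dimmest 0.01 and 0.04.

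**Figure D5:**
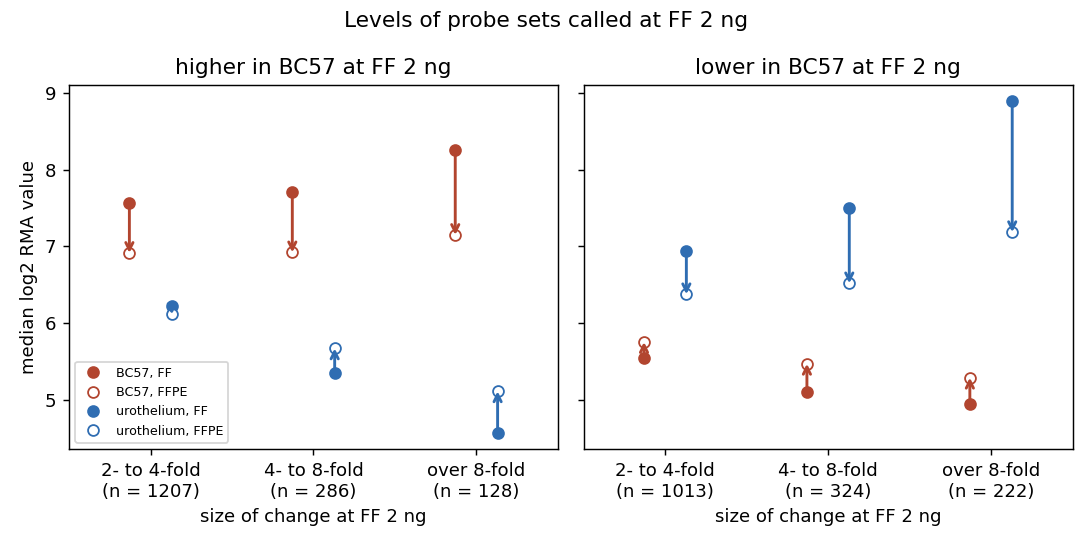
Median log2 RMA value (y axis) of the probe sets called at FF 2 ng, by size of their change there (x axis), with arrows from FF (filled) to FFPE (open) at 2 ng, BC57 in red and urothelium in blue. In the class over 8-fold, the upper level falls from 8.26 to 7.15 in BC57 (left) and from 8.89 to 7.18 in urothelium (right).

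Calls made at FFPE 2 ng and not at FF 2 ng numbered 354, with 309 higher and 45 lower in BC57. Their median change was 1.2 in size, and at FF 2 ng the same probe sets had a median of 0.65 in the same direction. Of the 354, 296 passed the adjusted p at FF 2 ng in the same direction without reaching 2-fold. The difference was called at 75, all larger at FFPE 2 ng. As the 354 were picked for a call at FFPE 2 ng and none at FF 2 ng, that direction was nearly fixed in advance. FFPE 50 ng called 215 of the 354 in the same direction, FFPE 0.5 ng 113, and both 87.

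Among FFPE conditions, a lower input with the same kit gave fewer calls of the same kind. At FFPE 0.5 ng 955 probe sets were called, 4.5% of those tested, with 647 higher (3.05%) and 308 lower (1.45%) in BC57. FFPE 2 ng called 829 of these in the same direction, which is 86.8% of the calls at 0.5 ng and 53.1% of those at 2 ng, with 0 opposite. Changes correlated at r = 0.865 (rho 0.727). Over the 0.5 ng calls the median ratio of the 2 ng to the 0.5 ng change was 1.1. Picking probe sets by their 0.5 ng values by itself lowers this ratio, by an amount that was not tested. The difference of the changes was called at 0 probe sets (0% of those tested) by limma, with a smallest adjusted p of 0.185. An unadjusted limma p under 0.05 was seen at 2111 of the 21237 probe sets, so 0 calls do not show equal changes. The SD of the change over probe sets was 0.58 at 2 ng and 0.49 at 0.5 ng. A fit on all 32 arrays, which pools the spread over 12 groups, called 38. The median SE of this difference was 0.19.

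SensationPlus at 50 ng of FFPE RNA gave 3329 calls, 15.7% of those tested, with 1952 higher (9.19%) and 1377 lower (6.48%). Of all these, 1377 were shared in direction with FFPE 2 ng, which is 41.4% of its calls and 88.2% of those at FFPE 2 ng. There were 2 opposite calls. Changes correlated at r = 0.850 (rho 0.760), and over the 50 ng calls the median ratio was 0.551, at 0.605 for rises and 0.509 for falls. Picking by the 50 ng values also lowers these ratios by itself, by an amount that was not tested. The difference was called at 906 probe sets, 4.27% of those tested, with 856 smaller and 50 larger at FFPE 2 ng (408 and 54 after quantile normalization). It was positive at 459 (2.16%) and negative at 447 (2.1%). SensationPlus arrays reached 8.60 to 8.65 at the 95th percentile in BC57 and 8.14 to 8.24 in urothelium, so BC57 stood above urothelium there as well.

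The remaining FF conditions called 3273 probe sets at 100 ng (15.4%, with 8.06% higher and 7.36% lower in BC57) and 3184 at 0.5 ng (15%, with 8.11% higher and 6.88% lower). Across all other conditions, 681 of the 1562 calls at FFPE 2 ng (429 higher, 252 lower) were called in the same direction in all 5. A further 447 were called in the 3 FF conditions and 1 of the other FFPE conditions. Those called in no FF condition in the same direction numbered 244, with 204 higher and 40 lower. Of these, 40 were called in both other FFPE conditions and 103 in no other condition at all. No FF call does not mean no FF change, and the difference was not tested for the 244 as a set. Of the 354 not called at FF 2 ng, 296 passed the adjusted p there in the same direction.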

How the data were processed

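The deposited table holds log2 values from the authors' RMA summary, for which the submitters' processing notes name the affy package. RMA corrects background, normalizes arrays and summarizes probes. Tool versions and the annotation build were not given in the sources used here. It is also not stated whether all arrays went through 1 normalization. The 32 columns are named by sample, and 0 columns belong to another series. Array data hold no read depth. No pair of arrays held identical values.

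Group means were compared in R 4.3.3 with limma 3.58.1 (lmFit, eBayes with an intensity trend, 2-sided) on the arrays of the groups compared, with Benjamini-Hochberg adjustment over 21237 probe sets. Differences of changes between conditions were fitted as an interaction.

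Probe sets to name were ordered by size of change among calls whose groups do not overlap. The rule asked for gene symbols. As 0 identifiers were named, it was applied to identifiers, 2 rises and 2 falls, and the 34 gene lists and the cell type markers were not tested. Members and lists were chosen with earlier results of these data known.

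Fits had no replicate block. Alternatives were centring, quantile normalization over 32 arrays, brighter probe sets alone, no trend, a fit on all arrays, a replicate block, array weights, adjusted p alone and leaving out each array.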

Additional observations from a re-analysis of the deposited data

Results flagged for a closer look

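Differences between conditions were called by the interaction test in these results. Against FF 2 ng the BC57 minus urothelium change differed at 1477 probe sets, and against FFPE 50 ng at 906. Of the named probe sets, ENSMUSG00000024512 had a smaller rise at FFPE 2 ng than at FF 2 ng, by -1.72, with BC57 going from 11.59 to 10.90 and urothelium, under the 25th percentile of its arrays at FFPE 2 ng, from 2.76 to 3.79. ENSMUSG00000019929 had a smaller fall than at FF 2 ng, by 1.67, and than at FFPE 50 ng, by 1.46. ENSMUSG00000107369 had a larger fall than at FFPE 50 ng, by -1.18. Array medians, the spread of values and brightness moved with these conditions, and their part in the differences was not tested beyond the scalings given.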

How the results depend on the processing

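The count of 1562 ran from 1535 to 1669 without single arrays, was 1567 with the replicate block, and stayed within 1.5 times under centring, quantile normalization, brighter probe sets alone (1239), no trend, the fit on all arrays and array weights. With adjusted p alone it was 8213. The 1477 differences from FF 2 ng ran from 1414 to 1675 without single arrays and were 1480 with the replicate block, 781 after quantile normalization and 8905 with adjusted p alone. The 906 from FFPE 50 ng ran from 857 to 965 and were 904 with the block, 462 after quantile normalization and 2681 with adjusted p alone. The 0 from FFPE 0.5 ng ran from 0 to 1, the 1 arising without BC57 FFPE 0.5 ng replicate 2, and was 0 with the block and 38 in the fit on all 32 arrays, where the spread is pooled over 12 groups. The cause of the other moves was not tested. Not every same-numbered pair deviated together at over 0.1, so replicate numbers were not taken to pair the samples. The correlations were -0.0051, 0.04 and -0.03 between BC57 and urothelium at FFPE 2 ng, and 0.21, 0.05 and 0.10 between BC57 at FFPE 2 ng and at FF 2 ng.

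The percentage of FF 2 ng calls made at FFPE 2 ng, 38.0%, ran from 37.6% to 38.6% without single arrays. It was 54.8% after quantile normalization, 42.1% among brighter probe sets and 47.2% with adjusted p alone. The median ratio of 0.476 ran from 0.464 to 0.485, and was 0.671, 0.50 and 0.423 in the same order. The FFPE 2 ng changes of the 4 named probe sets kept their direction and call under the 7 alternatives other than adjusted p alone and without each array. Their differences between conditions were not recomputed. No detection call was used, so how far background sets the changes at dim probe sets was not tested.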
